A study of Mus musculus with 24 samples.

Results

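Cortical collecting ducts were microdissected from mouse kidneys and sequenced as single tubules, and the tubules with the most connecting-tubule transcript were set against those with the least. The score of a tubule was the mean of log2(TPM + 1) of Calb1, Slc8a1 and Trpv5, where TPM is the deposited transcript level, corrected for the length of each gene and the total of each library. Within each genotype the 4 tubules with the highest and the 4 with the lowest score were chosen by their measured values, which gave 8 high and 8 low tubules of 24 in all. The other 8 are called middle tubules. The mice were male C57BL/6 animals aged 10 weeks. The 4 MUT mice carried Thr551Ala and Ser552Ala in beta-catenin per the labels' protocols, and the 4 WT mice were wild type, with 3 tubules from each mouse. The treatment label of all mice reads vehicle while the treatment protocol says that neither group was treated, and the allele's construction is not given in the sources used here. Each library held polyA RNA of 1 tubule amplified with a low-input kit.

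The connecting tubule lies between the distal convoluted tubule and the collecting duct, and in the mouse one segment passes into the next gradually. Its cells take calcium up from the urine through the channel TRPV5, carry it across the cell on calbindins, and return it to the blood through the sodium-calcium exchanger NCX1 and a calcium pump. Vitamin D, parathyroid hormone and the klotho protein are known regulators of this route. Of the score genes, Trpv5 encodes the channel, Calb1 encodes calbindin-D28k and Slc8a1 encodes NCX1.

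Every tubule contained transcript of all 3 score genes, so the groups differ in amount and not in presence. The score ran from 5.11 to 5.81 in high tubules and from 4.05 to 4.71 in low tubules, and from 4.64 to 5.30 in middle tubules. At the cut-offs, MUT tubule 2 of mouse 3 entered the high group at 5.11 and MUT tubule 1 of mouse 4 stayed out at 4.89. In WT the last high tubule had 5.32 and the first one outside had 5.30. On the low side the last tubules inside had 4.49 in MUT and 4.71 in WT, and the first outside had 4.64 in MUT and 4.73 in WT, so the cut in WT fell between tubules of almost the same score. Trpv5 had 6.35, 12.6 and 18.4 TPM (lowest, median and highest) in high tubules, against 1.5, 2.25 and 3.61 TPM in low tubules. Calb1 had 319.1, 393.7 and 434.5 TPM in high tubules, against 95.7, 214.9 and 348.7 TPM in low tubules, and the groups overlapped. Slc8a1 had 11.9, 17.4 and 25.6 TPM in high tubules, against 8.94, 9.94 and 12.6 TPM in low tubules, and they overlapped too. These 3 genes defined the groups and were not tested.

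**Figure D1:**
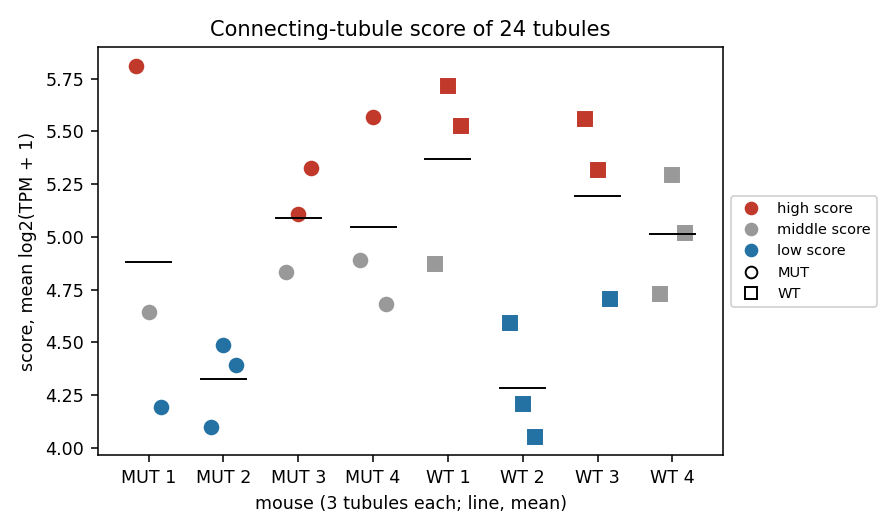
Connecting-tubule score (mean log2(TPM + 1) of Calb1, Slc8a1 and Trpv5) of each of 24 tubules by mouse, with MUT mice as circles and WT mice as squares; red, grey and blue mark high, middle and low tubules and each line is the mean of a mouse. All 3 tubules of MUT mouse 2 and of WT mouse 2 are low, and WT mouse 4 has 3 middle tubules.

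The low tubules came mostly from a pair of animals. MUT mouse 2 and WT mouse 2 gave 6 of the 8 low tubules and no high one. High tubules came from MUT mice 1 (1 tubule), 3 (2 tubules) and 4 (1 tubule) and from WT mice 1 and 3 (2 tubules each). Only MUT mouse 1 and WT mouse 3 had tubules in both groups. The intraclass correlation of the score by mouse was 0.36. A difference between high and low tubules is therefore in large part one between animals, and values within single mice are given beside the main results. In most mice the highest and lowest tubule lay closer in score than the group means, whose gap was 1.15. In MUT mouse 2, for example, the score ran from 4.10 to 4.49. The sizes of differences within mice and between groups are therefore not directly comparable. The score itself averaged 4.84 ± 0.35 in MUT mice and 4.97 ± 0.48 in WT mice (SD of 4 mouse means each), a difference of -0.13 with p = 0.60 in a two-sided exact permutation test over 70 arrangements of the mice.

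Sequence upstream of the calcium genes is shown for Trpv5, the score gene that separated the groups fully, and S100g, the calcium-binding gene with the widest difference described below. RefSeq promoters, from 250 bases before to 50 bases after the annotated start, were matched by symbol for 4 of 5 genes looked up (the 3 score genes, S100g and Kl). Calb1 had no match. The letters TATAAA were searched on both strands and occurred, on the gene's strand, in 2 of these promoters, those shown, and in 8.32% of all 32851 promoters in the table (13.6% on either strand). Capitals mark them; in Trpv5 they begin 43 bases before the start and in S100g at the start itself. The Trpv5 window is chr6:41680674-41680973 and the S100g window chrX:162964550-162964849, both on the minus strand of GRCm38.p6, a different build from that named for the deposited values.
Trpv5: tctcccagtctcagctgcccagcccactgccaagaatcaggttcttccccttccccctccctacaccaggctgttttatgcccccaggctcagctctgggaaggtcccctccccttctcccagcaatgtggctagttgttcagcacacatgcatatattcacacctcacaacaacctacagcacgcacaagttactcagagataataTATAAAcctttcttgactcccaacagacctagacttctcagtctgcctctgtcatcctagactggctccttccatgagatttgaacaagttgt
S100g: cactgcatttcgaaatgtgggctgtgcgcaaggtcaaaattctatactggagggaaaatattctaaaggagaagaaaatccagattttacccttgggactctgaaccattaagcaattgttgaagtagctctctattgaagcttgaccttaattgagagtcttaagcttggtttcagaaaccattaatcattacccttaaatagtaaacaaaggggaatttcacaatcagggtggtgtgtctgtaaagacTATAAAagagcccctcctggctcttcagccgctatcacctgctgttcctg

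Across all genes, few passed the test. Of 15010 genes that averaged 1 TPM or more, 13 rose in high tubules (0.0866% of those tested) and 1 fell (0.00666%), by limma on log2(TPM + 1) with genotype as covariate, the mouse as a random effect and a Benjamini-Hochberg adjusted p under 0.05. At an unadjusted p under 0.05, 565 genes were higher (3.76%) and 1081 lower (7.2%). The median difference over all genes was -0.03 on the log2 scale. The genes that rose were Kl, Trf, Pdgfd, Scn4b, Kng2 and the predicted gene Gm47708, together with 7 genes with known phagocyte or lysosomal products, C1qa, C1qb, C1qc, Cd68, Cybb, Cx3cr1 and Plbd1. Flrt3 fell. The count rested on single mice: it was 1 without MUT mouse 2, WT mouse 1 or WT mouse 2, 0 without MUT mouse 1, MUT mouse 4 or WT mouse 3 (1674, 1452 and 1287 genes at an unadjusted p under 0.05), and 39 without MUT mouse 3. It was also 0 when either Slc8a1 or Trpv5 was left out of the score (1962 and 2214 genes at an unadjusted p under 0.05, by limma).

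Among the genes of calcium handling, klotho followed the score most closely. Kl encodes a membrane protein that serves as co-receptor for the phosphate-regulating hormone FGF23 and is known to hold TRPV5 at the cell surface. Kl had 81.8, 108.2 and 158 TPM (lowest, median and highest) in high tubules, against 54.8, 57.9 and 65.6 TPM in low tubules. All 8 high tubules were above all 8 low ones, an order that 17 of all tested genes (0.113%) showed, and the 8 middle tubules, at 75.5 to 91.0 TPM, were also above every low tubule. Kl rose by 0.93 (SE 0.13) on the log2(TPM + 1) scale, with an adjusted p of 0.022 by limma. Within mice, the highest-score tubule had more Kl than the lowest-score tubule in 7 of 8 animals. In MUT mouse 1 the high tubule had 158 TPM and the low one 60.5 TPM, and in WT mouse 3 the high tubules averaged 102 TPM and the low one had 55.6 TPM. With the score as a continuous measure over 24 tubules and each mouse as a fixed block, a fit added after the data were seen, the difference was 0.85 (SE 0.11) over the gap of 1.15 between the group means of the score, with an adjusted p of 0.0026 by limma. Its sign was the same in 32 of 32 alternative fits, while the adjusted p was under 0.05 in 13 of them. Among these, leaving Calb1 out of the score or leaving out WT mouse 4 kept the same high and low tubules. Both fits called the same 14 genes, so they repeat the main fit and do not check it. Kl passed when MUT mouse 3 was left out, or WT mouse 4, which had no high or low tubule, and did not pass when any of the other 6 mice was left out (adjusted p of 0.06 to 0.13 by limma).

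S100g had the widest range of the calcium genes, but it did not pass the test. It encodes calbindin-D9k, a small cytosolic calcium-binding protein induced by vitamin D. S100g had 93.3, 1731 and 3727 TPM in high tubules, against 31.4, 235.1 and 306.5 TPM in low tubules. Of the high tubules, 7 were above every low one, and the exception was MUT tubule 2 of mouse 3, at 93.3 TPM. The 8 middle tubules, at 457.4 to 952.2 TPM, were all above every low tubule. The difference was 2.77 (SE 0.68), with an adjusted p of 0.19 by limma. Within mice the tubule of the highest score had more S100g than that of the lowest in 8 of 8 animals, as had 115 of all tested genes (0.766%). In MUT mouse 1 the high tubule had 3052 TPM and the low one 236.9 TPM.

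The receptor for vitamin D showed the same direction within every animal. Vdr had 44.9, 50.6 and 65.7 TPM in high tubules, against 21.4, 36.7 and 52.3 TPM in low tubules, with 3 high tubules above every low one. Its difference was 0.52 (SE 0.15), with an adjusted p of 0.28 by limma, and the highest-score tubule was above the lowest in 8 of 8 mice. Klk1, tissue kallikrein, a secreted protease of the connecting tubule, had 23.2, 145 and 257.5 TPM in high tubules, against 14.9, 54.1 and 203.9 TPM in low tubules. The groups overlapped widely (difference 1.05, SE 0.56, adjusted p 0.50 by limma), and 3 middle tubules were above every high one, the highest at 2114 TPM. The second epithelial calcium channel had nearly the same level in both groups. Trpv6, chosen after its values were seen, had 13.8, 18.3 and 21.0 TPM in high tubules, against 11.6, 17.3 and 19.6 TPM in low tubules, a difference of 0.00 (SE 0.12, adjusted p 1.00 by limma).

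Of the 12 genes listed for the connecting tubule and calcium handling beside the score genes, 10 were tested and 2 were under 1 TPM on average. All 10 had a positive difference, 4 of them with an unadjusted p under 0.05, and 1 of them, Kl, passed. Over all tested genes, 40.0% had a positive difference, 3.76% were higher at an unadjusted p under 0.05 and 0.0866% rose. The median difference of the list was 0.48, beside -0.03 over all genes. In the comparison of each mouse's own highest and lowest tubule, which spans a smaller score gap in most mice, the median of the list was 0.05. In it 7 of the 10 were positive. The other members named here were chosen after their values were seen. Casr, the calcium-sensing receptor, had a difference of 0.36 (SE 0.18, adjusted p 0.48). Atp2b1, a plasma membrane calcium pump, had a difference of 0.11 (SE 0.08, adjusted p 0.64). Pth1r, the parathyroid hormone receptor, had 0.96 to 54.8 TPM in high tubules and 1.27 to 5.10 TPM in low tubules, and its level within mice was higher in 3 of 8.

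**Figure D2:**
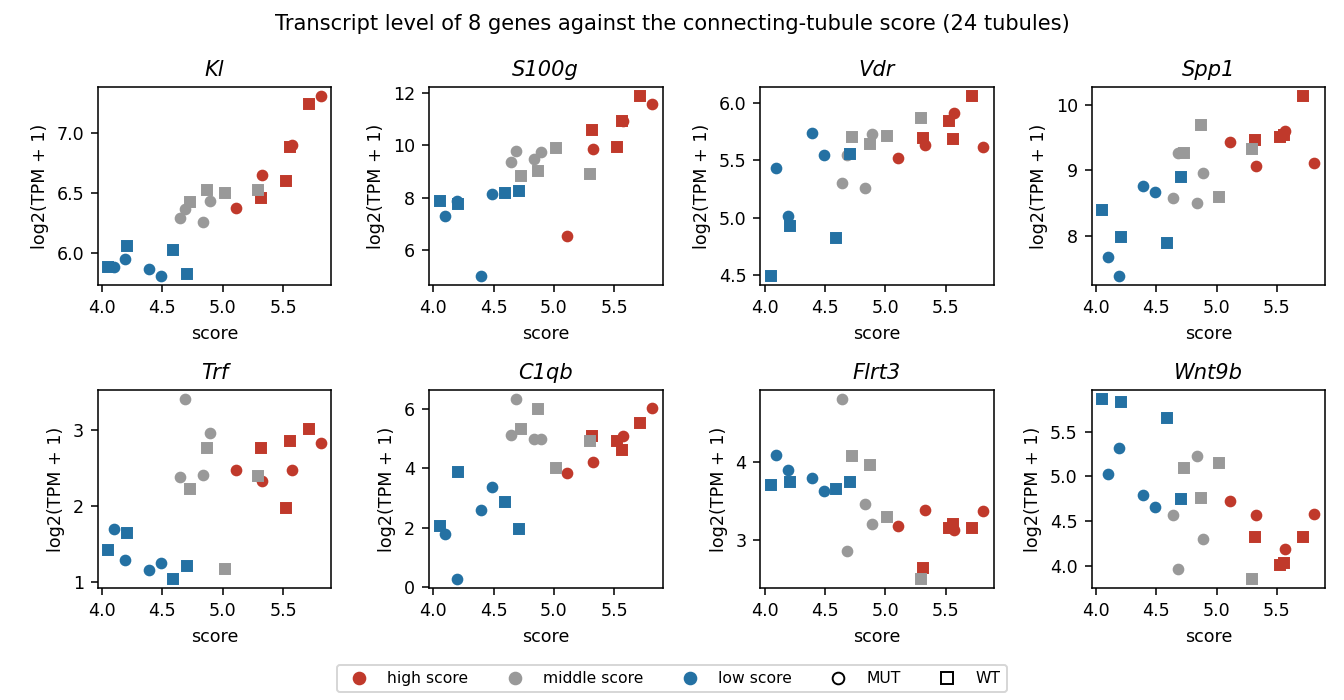
Level of 8 genes as log2(TPM + 1) against the connecting-tubule score in 24 tubules, with MUT as circles, WT as squares, and red, grey and blue for high, middle and low tubules. Kl is at 54.8 to 65.6 TPM in low, 75.5 to 91.0 TPM in middle and 81.8 to 158 TPM in high tubules, S100g is low in 1 high MUT tubule at 93.3 TPM, and C1qb has a median of 32.5 TPM in middle and 31.4 TPM in high tubules.

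Genes most like the score were ranked by Pearson's correlation over the 24 tubules, after taking out the genotype means, among 8513 genes averaging 10 TPM or more, with predicted genes and clone names left out. These correlations are a description over tubules that share mice and libraries, and the score genes were left out. The ranking used the same tubules as the comparison within mice. For genes picked by it, the direction within mice is therefore not separate support. Kl came first with 0.91, and Tmem52b (0.81), Depdc7 (0.79), Spp1 (0.78), Pdcd4 (0.77) and S100g (0.76) followed. Tmem52b had 506.7, 697.8 and 934.9 TPM in high tubules, against 160, 320.2 and 607.6 TPM in low tubules, and 5 high tubules were above every low one. Its difference was 0.96 (SE 0.24, adjusted p 0.19 by limma), positive in 8 of 8 mice. Spp1 encodes osteopontin, a secreted phosphoprotein of the kidney tubule that inhibits crystal growth. Spp1 had 535.4, 717 and 1120 TPM in high tubules, against 166, 293.9 and 478 TPM in low tubules. The groups did not overlap, as for 17 of all tested genes (0.113%) with every high tubule above every low one. Its difference of 1.25 (SE 0.23) had an adjusted p of 0.052 by limma, just short of the threshold, and 7 of 8 mice had the same direction. At the other end of the ranking were Rccd1 (-0.76), Bbs1 (-0.75), Utrn (-0.75), Tspan14 (-0.74) and Pigq (-0.74). Utrn encodes utrophin, a cytoskeletal linker, and had 23.2, 35.0 and 42.8 TPM in high tubules, against 34.1, 56.9 and 66.5 TPM in low tubules. Utrn and Bbs1, a subunit of the ciliary BBSome, were lower in the highest-score tubule in 8 of 8 mice, as were 190 of all tested genes (1.27%). Both were picked by their correlation over these same tubules, so that direction was largely set by the choice.

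A sodium channel subunit and a kinin precursor were among the genes that rose. Scn4b encodes a beta subunit of voltage-gated sodium channels. Scn4b had 4.84, 6.67 and 11.9 TPM in high tubules, against 0.79, 1.56 and 4.37 TPM in low tubules. The groups did not overlap, and Scn4b rose by 1.48 (SE 0.23, adjusted p 0.033 by limma), with 7 of 8 mice in the same direction. In 17 of all tested genes (0.113%) all 8 high tubules were above all 8 low ones. Genes named for the smallest p come from this same comparison, so a lack of overlap is not separate support for them. Kng2, a kininogen gene whose product is cut by kallikrein to release kinins, had 89.6, 106.2 and 132.7 TPM in high tubules, against 44.0, 64.4 and 80.2 TPM in low tubules. Kng2 rose by 0.73 (SE 0.12, adjusted p 0.033 by limma) without overlap. Within mice it was higher in the highest-score tubule of 6 of 8 animals, with a mean difference of -0.04 (SE 0.31). Trf, which encodes the iron carrier transferrin, had 2.93, 5.18 and 7.08 TPM in high tubules, against 1.05, 1.42 and 2.23 TPM in low tubules. Trf rose by 1.3 (SE 0.17, adjusted p 0.022 by limma), also without overlap, and was higher within 4 of 8 mice. Pdgfd, a platelet-derived growth factor, had 1.94 to 3.79 TPM in high tubules and 0.90 to 1.40 TPM in low tubules, rose by 0.79 (SE 0.11, adjusted p 0.022 by limma), and was higher within 5 of 8 mice. Middle tubules ran wider, with 2.11 to 13.1 TPM of Scn4b and 72.2 to 456.5 TPM of Kng2. They had 1.25 to 9.58 TPM of Trf and 0.83 to 6.68 TPM of Pdgfd. Each of these ranges reached above every high tubule.

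Flrt3, an adhesion protein with leucine-rich repeats, was the gene that fell. Flrt3 had 5.22, 7.98 and 9.42 TPM in high tubules, against 11.3, 12.4 and 16.0 TPM in low tubules. All 8 high tubules were below all 8 low ones, as for 2 of all tested genes (0.0133%). Middle tubules had 4.63 to 27.0 TPM, a range wider than that of both groups. Flrt3 fell by 0.65 on the log2 scale (SE 0.10, adjusted p 0.033 by limma), and was lower in the highest-score tubule of 7 of 8 mice. The next genes by p did not pass. Wnt9b, a Wnt ligand of the ureteric bud and its derivatives, had 15.0, 19.0 and 25.4 TPM in high tubules, against 24.2, 35.3 and 57.1 TPM in low tubules. Its difference was -0.85 (SE 0.18, adjusted p 0.085 by limma), and 7 high tubules were below every low one. Slc2a1, the glucose transporter GLUT1, had 402.2, 484.1 and 567.3 TPM in high tubules, against 532.3, 597.8 and 714.9 TPM in low tubules (difference -0.31, SE 0.07, adjusted p 0.12 by limma). The remaining genes of the same rule, Nhlrc4, Gpatch2l, Ubtd1, Wwc1, Fgf12, Morn2, Igdcc3, Pde7a and Hoxb9, had differences of -0.71 to -0.21 and adjusted p of 0.071 to 0.12.

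Lists of collecting duct transcripts differed in their direction, and none of their members passed the test. Over all genes, 8944 of 15010 had a negative difference and 5998 (40.0%) a positive one. At an unadjusted p under 0.05, 7.2% of all genes were lower and 3.76% higher. These shares also stand beside the lists of the following paragraphs. Of 16 principal cell genes, 12 had a negative difference, 8 of them with an unadjusted p under 0.05, and 0 passed by limma; the median difference was -0.24. Aqp2, the vasopressin-regulated water channel, had 9501, 13060 and 23206 TPM in high tubules, against 10956, 20284 and 30070 TPM in low tubules (difference -0.47, SE 0.21, adjusted p 0.44). The groups overlapped for all but 1 high tubule. Kcnj1, the potassium channel ROMK, had 741.5, 874.6 and 1192 TPM in high tubules, against 932.6, 1258 and 1475 TPM in low tubules (difference -0.35, SE 0.11, adjusted p 0.31). Fxyd4, a regulator of the sodium pump, had a difference of -0.52 (SE 0.17, adjusted p 0.33), and 7 high tubules were below every low one. In the other direction, Kcne1, a potassium channel subunit, had 591.4, 724.4 and 840.6 TPM in high tubules and 228, 508.8 and 757.1 TPM in low tubules, and was higher within 8 of 8 mice (difference 0.50, SE 0.21, adjusted p 0.42). The subunits of the epithelial sodium channel were near level. Scnn1a, Scnn1b and Scnn1g had differences of 0.11, 0.08 and -0.06, and the 11 genes of the sodium channel and mineralocorticoid list had a median of 0.00 (5 positive and 6 negative, or 7 and 4 with median-ratio scaling), with 0 at an unadjusted p under 0.05. In whole tubules, fewer cells of a type and less RNA per cell cannot be told apart.

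Genes shared by intercalated cells, the acid- and base-secreting cells of the duct, had a median difference of 0.08, with 7 of 8 positive and 0 at an unadjusted p under 0.05. Of 9 potassium channel genes 6 had a positive difference (median 0.09, 0 passed), and their median within mice was -0.18. Genes of the acid-secreting type A cell and the base-secreting type B cell are given apart. All 5 type A genes had a negative difference (median -0.61, 4 with an unadjusted p under 0.05, 0 passed). Slc4a1, the basolateral chloride-bicarbonate exchanger AE1, had 250.7, 368.8 and 470.8 TPM in high tubules, against 342.8, 587.2 and 863.6 TPM in low tubules (difference -0.61, SE 0.20, adjusted p 0.33 by limma). Of the 5 type B genes 4 had a positive difference (median 0.22, 0 with an unadjusted p under 0.05). Slc26a4, the apical exchanger pendrin, had 1376, 1847 and 2331 TPM in high tubules, against 820.2, 1434 and 2048 TPM in low tubules (difference 0.36, SE 0.18, adjusted p 0.48 by limma), and was higher within 7 of 8 mice. With the principal cell genes as a covariate all 5 type B genes were negative (median -0.03), as were all 5 type A genes (median -0.12). The difference between the lists was not tested. Of 7 regulators known from the ureteric bud, all 7 had a negative difference and 0 passed, with a median of -0.17. Within mice their median was -0.07, with 2 positive and 5 negative. Beside Wnt9b, Wnt7b and Elf5 had differences of -0.87 (SE 0.29, adjusted p 0.35) and -0.84 (SE 0.31, adjusted p 0.38). Transcription factors of the nephron-derived distal tubule had a median of 0.05 over 5 tested genes (3 positive and 2 negative), 0 of which passed. Pou3f3, with the smallest p of them, had a difference of -0.25 (SE 0.08, adjusted p 0.33 by limma). For Pou3f3, 7 high tubules were below every low one. Emx1 went the other way, with 0.37 (SE 0.19, adjusted p 0.48 by limma).

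Markers of the distal convoluted tubule were looked at next, since its late part shares Calb1, Slc8a1 and Trpv5 with the connecting tubule. Its defining genes were nearly absent: Slc12a3, the thiazide-sensitive cotransporter, had 0.03 to 1.20 TPM in high tubules and 0.21 to 0.85 TPM in low tubules, and Pvalb, parvalbumin, had 0 to 0.69 TPM in high tubules and 0 to 0.25 TPM in low tubules. Both were chosen after their values were seen. In 2 middle tubules Slc12a3 was above every high tubule, at 20.2 TPM in MUT tubule 1 of mouse 4 and 9.84 TPM in WT tubule 1 of mouse 4. Other genes of that list, which the connecting tubule or collecting duct also express, were more abundant. Of its 14 tested genes, 11 had a positive and 3 a negative difference, with a median of 0.16. By limma, 4 had an unadjusted p under 0.05 and 0 passed. Within mice the median of the list was 0.03, with 9 positive and 5 negative. Fxyd2, the gamma subunit of the sodium pump, had 429.1, 999.9 and 1524 TPM in high tubules, against 150, 418.3 and 951.1 TPM in low tubules (difference 1.24, SE 0.40, adjusted p 0.33 by limma). Wnk4, a kinase that controls salt transport, had 54.2, 62.1 and 80.9 TPM in high tubules, against 40.5, 50.1 and 65.0 TPM in low tubules, and was higher within 8 of 8 mice (difference 0.32, SE 0.11, adjusted p 0.36 by limma).

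**Figure D3:**
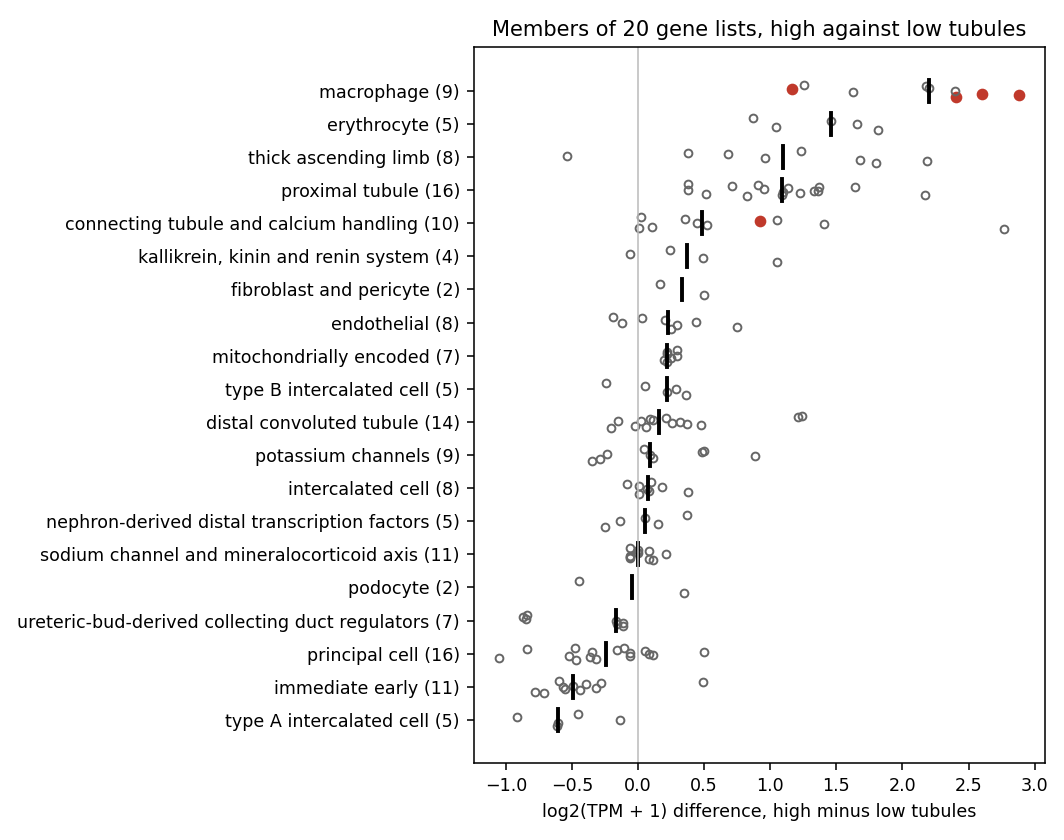
Difference between high and low tubules in log2(TPM + 1) for each tested member of 20 gene lists, with the number tested in brackets; red circles passed the test and black bars are list medians. The macrophage list lies farthest to the right (median 2.20) and the type A intercalated cell list farthest to the left (median -0.61).

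Of the 20 lists, the macrophage genes had the largest median difference. All 9 macrophage genes had a positive difference, all 9 with an unadjusted p under 0.05, and 4 rose (C1qa, C1qb, C1qc and Cx3cr1). Over all tested genes, 40.0% were positive, 3.76% were higher at an unadjusted p under 0.05 and 0.0866% rose. The median difference of the list was 2.20. C1qb, which encodes 1 of the chains of complement C1q, had 13.2, 31.4 and 65.1 TPM in high tubules, against 0.19, 4.05 and 13.6 TPM in low tubules. Of the high tubules 7 were above every low one, and C1qb rose by 2.88 (SE 0.48, adjusted p 0.033 by limma). Cybb, the catalytic subunit of the phagocyte NADPH oxidase, had 2.12 to 5.15 TPM in high tubules and 0.49 to 1.88 TPM in low tubules. It rose by 1.15 (SE 0.19, adjusted p 0.033 by limma) without overlap, an order that 17 of all tested genes (0.113%) showed. Cd68, a lysosomal glycoprotein of macrophages, had 3.14, 7.68 and 9.77 TPM in high tubules, against 1.07, 1.43 and 4.45 TPM in low tubules (rose by 1.57, SE 0.26, adjusted p 0.033 by limma). None of the 9 list members was at 0 in all tubules.

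Macrophage transcripts were also given tubule by tubule. The summed level of the list was 237.2 to 837.6 TPM in high tubules and 47.2 to 250.4 TPM in low tubules, but 149 to 1120 TPM in middle tubules. For C1qb all 8 middle tubules were above every low tubule and 0 were below every high tubule. Within mice C1qb was higher in the highest-score tubule of 4 of 8 animals and lower in the other 4, and C1qa and C1qc were higher in 5 of 8. All 9 genes of the list kept a positive mean difference within mice, with a median of 0.76. In MUT mouse 1 it had 65.1 TPM in the high tubule and 0.19 TPM in the low one, and in WT mouse 3 it averaged 28.6 TPM in high tubules and had 2.90 TPM in the low one. A fit with each mouse as a fixed block, whose contrast comes from these 2 mice alone, called 9 genes, 0 of them among the 14 above. Of these 9, named after their values were seen, Tyrobp, a signalling adaptor of myeloid cells, rose by 3.63 (SE 0.33, adjusted p 0.0033 by limma) and Lcp1, an actin-bundling protein of leukocytes, by 2.67 (SE 0.31, adjusted p 0.016 by limma). Whether macrophage content has a part in the other differences was not tested.

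**Figure D4:**
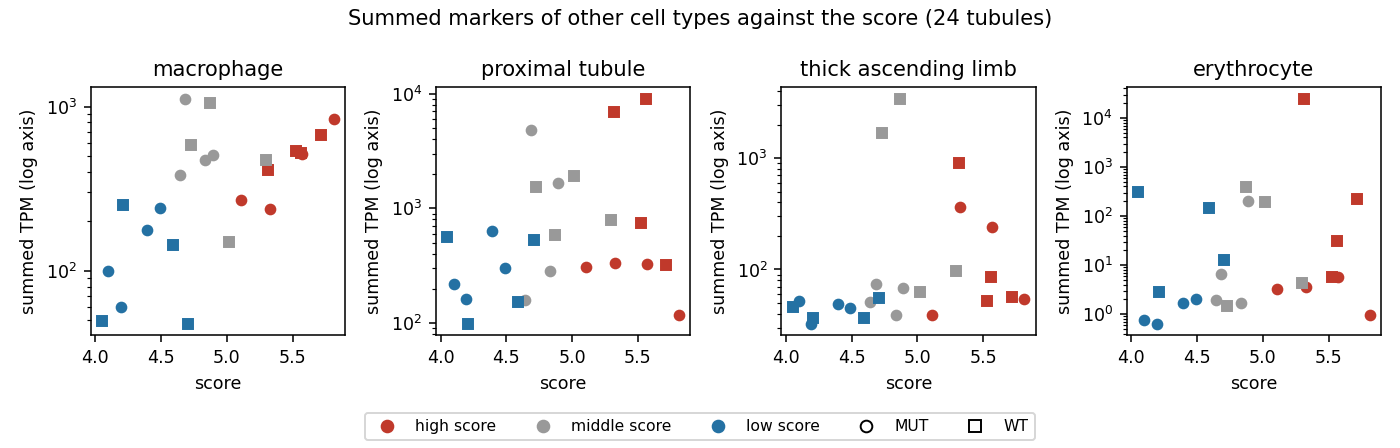
Summed TPM (log axis) of the markers of macrophages, proximal tubule, thick ascending limb and erythrocytes against the connecting-tubule score in 24 tubules; MUT are circles, WT are squares, and red, grey and blue mark high, middle and low tubules. Macrophage markers are at 47.2 to 250.4 TPM in low tubules, and proximal tubule markers reach 9041 TPM in a high WT tubule.

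Transcripts of other tubule segments and of blood were present in some libraries. Summed proximal tubule markers were 117 to 9041 TPM in high tubules and 97.9 to 640.6 TPM in low tubules, with the 2 highest values in the high tubules of WT mouse 3. The median difference over 16 such genes was 1.09. All 16 were positive, beside 40.0% of all tested genes, with 1 at an unadjusted p under 0.05 and 0 passed. The median of the list was 0.00 in MUT tubules alone and 2.22 in WT tubules alone. Within mice it was -0.29, with 12 of 16 negative. Summed thick ascending limb markers were 39.4 to 912.3 TPM in high tubules and 32.3 to 55.3 TPM in low tubules. Their median difference was 1.10 over 8 genes (7 positive, 0 passed) and -0.62 within mice (7 negative). Summed erythrocyte markers were 0.97 to 24918 TPM in high tubules and 0.62 to 301.8 TPM in low tubules. A sum over 5 times the median of the tubules for any of these 3 lists marked 11 of the 24 tubules, 4 of them high and 2 low. Without them the fit called 0 genes (630 at an unadjusted p under 0.05, by limma), with 6 fewer tubules in the comparison, and Kl had a difference of 0.92 (SE 0.17). Endothelial genes had a median difference of 0.23 over 8 genes (6 positive), but -0.26 within mice (7 negative). Fibroblast and pericyte genes had a median of 0.33 over 2 genes and podocyte genes of -0.05 over 2. None of these 3 lists had a member that passed. The part of these transcripts in the remaining differences was not tested.

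Mitochondrial and immediate early genes gave no call. All 7 tested genes encoded by the mitochondrial genome had a positive difference, beside 40.0% of all tested genes. Their median was 0.22, with 3 at an unadjusted p under 0.05 and 0 passed. Of all tested genes, 3.76% were higher at that p. Another 6 mitochondrial genes were listed at 0 in every tubule. Of 11 immediate early genes, which respond within minutes to stimulation or handling, 10 had a negative difference (median -0.49, 0 at an unadjusted p under 0.05). Their median was -1.10 in MUT tubules alone and 0.27 in WT tubules alone, and the difference between genotypes was not tested for the list. Fos had 406.4, 676.3 and 2400 TPM in high tubules, against 825.4, 1319 and 2109 TPM in low tubules (difference -0.71, SE 0.35, adjusted p 0.48 by limma).

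Genotype was compared last. The interaction of score group and genotype passed the threshold for 0 genes by limma, with 702 at an unadjusted p under 0.05 and a smallest adjusted p of 0.94. Kl had a difference of 0.98 (SE 0.18) in MUT tubules and 0.86 (SE 0.17) in WT tubules. S100g had a difference of 2.77 (SE 1.27) in MUT tubules and 2.78 (SE 0.41) in WT tubules. Wnt9b had -0.49 (SE 0.18) in MUT tubules and -1.29 (SE 0.26) in WT tubules, and its interaction term of 0.73 had an adjusted p of 0.94. The interaction count rose to 52 without MUT mouse 2, 51 without WT mouse 1, 4 without WT mouse 2 and 2 without WT mouse 3.

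The comparison of each mouse with itself was added after it was seen that mice number 2 held most low tubules. It set the highest-score against the lowest-score tubule of all 8 animals and called 0 genes by limma (1902 at an unadjusted p under 0.05). The mean difference was 1.49 (SE 0.43) for S100g, 1.00 (SE 0.74) for C1qb, 0.69 (SE 0.20) for Scn4b, 0.62 for Tmem52b and 0.53 (SE 0.16) for Kl. S100g, Vdr, Tmem52b, Depdc7, Wnk4, Kcne1 and Emx1, a homeobox factor, were higher in all 8 animals, a direction that 115 of all tested genes had in every animal. Trf, with a mean of 0.22 (SE 0.30), Kng2 at -0.04 and Plbd1 at -0.04 were not separated from 0 in this comparison. Nor were the called genes Pdgfd (0.13, SE 0.18), Cybb (0.31, SE 0.34), Cx3cr1 (0.30, SE 0.29) and Cd68 (0.36, SE 0.35). The same held for C1qb and for C1qa (0.76, SE 0.61) and C1qc (0.96, SE 0.60). Without both mice number 2 the only low tubules left were 1 of MUT mouse 1 and 1 of WT mouse 3. That fit called 6 genes, 0 of them among the 14. Of the 6, 3 were higher (Tyrobp, Cd74 and Ush1c) and 3 lower. The differences of Kl (0.97, SE 0.23) and S100g (2.52, SE 1.05) had the same sign as with all mice. Neither passed, with adjusted p of 0.40 for Kl and 0.61 for S100g by limma.

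**Figure D5:**
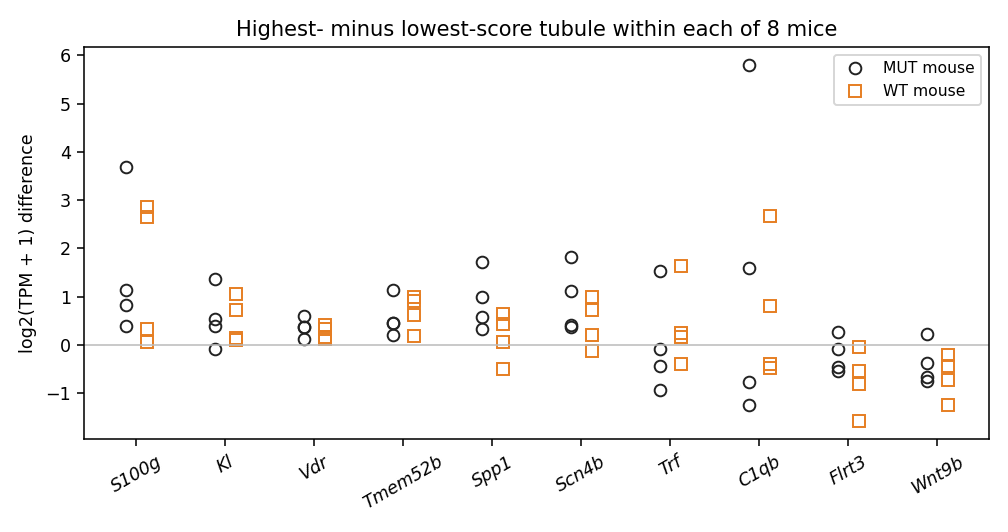
Difference in log2(TPM + 1) between the highest-score and the lowest-score tubule of each mouse for 10 genes, with MUT mice as circles and WT mice as squares. S100g, Vdr and Tmem52b are above 0 in all 8 mice, while Trf and C1qb lie on both sides of 0.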

How the data were processed

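RNA-seq of 24 single tubules was used, 3 from each of 4 MUT and 4 WT mice. The authors deposited 1 table of TPM per gene (55416 rows). RSEM 1.3.3, STAR and the build GRCm39 are listed in the submitters' processing notes without their roles. TPM keep no depth, so depth is unknown and no interval that needs it is given. Each tubule had 13572 to 16091 genes at 1 TPM or more. Where rows shared a symbol, the one with the highest mean kept it and the others stayed in under their gene identifier. The authors' own summary columns (4) were not used.

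From the deposited TPM, log2(TPM + 1) was fitted by limma 3.58.1 in R 4.3.3, with a mean-variance trend, genotype as covariate and the mouse as a random effect (consensus correlation 0.22), over 15010 genes. The scale understates changes of low genes. The p-values measure whether a gene varies with a score taken from the same libraries. The fit was tested on simulated data. Figures and summaries used Python 3.11.15. Members, lists and tests were chosen with earlier results of these data known, and 3 alternatives were added after the data were seen. Genes named were the 3 score genes, 12 per direction by smallest p (predicted genes left out), per list the 3 smallest p and the 2 highest levels, the 10 genes most and 5 least like the score, and those said to be chosen later. The p-values rest on mice numbered as separate animals. Alternatives covered the mouse term, pseudocounts of 0.1 and 5, filters, scaling, group sizes, the score's genes, single genotypes, covariates and leaving out each mouse.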

Additional observations from a re-analysis of the deposited data

Results flagged for a closer look

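In the high tubules, the Flrt3 level of WT tubule 2 of mouse 3 stood apart from the others at 5.22 TPM, where the nearest was 7.76 TPM. The gap was 0.66 of the range of the 8 tubules, above the limit of 0.53 for 8 values. It was 1 of 56 groups looked at, and chance alone marks about 1 in 20.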

How the results depend on the processing

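Of the 14 genes called, all that an alternative tested kept their direction, with these exceptions. Kng2 turned to -0.008 with 6 highest and 6 lowest tubules per genotype and to -0.0359 in the within-mouse comparison, where Plbd1 turned to -0.0368. The number called moved much more. It was 25 with tubules as independent, 9 with the mouse as a fixed replicate block, 2 with the mouse number as a replicate block, 9 with standardised score genes, 2 with no filter, 2 with principal cell genes as a covariate, 2 in WT alone and 2 with the continuous score and the mouse as a fixed replicate block. It was 6 without both mice number 2, and 0 with a pseudocount of 5, 3 or 6 tubules per genotype and end, a score without Slc8a1 or Trpv5, MUT alone, no carry-over tubules, and the within-mouse comparison. Leaving out 1 mouse gave 0 to 39 calls. The interaction called 1 gene with a pseudocount of 5, and 0 to 52 when 1 mouse was left out. The score difference of MUT minus WT mice was 0.0661 without Trpv5 and -0.3558 to 0.0413 when 1 mouse was left out, with exact p of 0.17 or more; pairing same-numbered mice as a replicate block left it at -0.13 (exact p 0.50). Over genes, the deviations of same-numbered MUT and WT mice had correlations of -0.02, 0.02, -0.04 and 0.01 for numbers 1 to 4. In the score, however, mouse 2 had the lowest mean of each genotype (4.33 in MUT and 4.28 in WT). Whether mouse numbers pair the genotypes cannot be told from these values. The causes of these shifts were not tested. Depth is unknown, so counting error could not be separated from differences between tubules. Genes below a few TPM are the least certain.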
